A study of Homo sapiens with 21 samples.

Results

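Complement genes were examined in 21 RNA-seq libraries of BT-549, a triple-negative breast cancer (TNBC) cell line, in 7 groups of 3 cultures. Of the 42339 gene identifiers in the count table, 9 mapped to the genes chosen by name, namely the components C1R, C1S, C3, CFB and CFI and the regulators SERPING1, CD46, CD55 and CD59. The genes were picked with earlier results of these libraries in view, and which values led to the choice is not recorded. Their results in the 4 comparisons of the study, and every difference or ratio formed from them, are therefore a description of these genes and support nothing about complement as a whole. Of the 9, 7 had enough reads to be tested in every comparison, and CFB and CFI did not.

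All groups were BT-549 cells whose genotype is labelled WT, the lines with an added shRNA included. The 2D cells were untreated and grown attached in serum-containing RPMI1640, whereas every other group was grown as 3D mammospheres in MammoCult on low-attachment plates, so growth format and medium cannot be told apart. The 3D cells were untreated mammospheres at passage 6, and the 3D cells + GO-203 were the same passage with 0.75 µmol/L GO-203, a peptide inhibitor of the MUC1-C subunit of mucin 1. The tet-MUC1shRNA mammospheres, at passage 6, and the tet-MYCshRNA mammospheres, at passage 8, carried a doxycycline (DOX)-inducible shRNA and received 0.1% DMSO as vehicle or 500 ng/ml DOX. Each gene was targeted by 1 shRNA, and no DOX-treated line with a non-targeting shRNA was used here, so the effect of DOX itself and that of silencing cannot be told apart. The same 3D libraries served as the mammospheres compared with 2D cells and as the controls for GO-203, so those comparisons share them.

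Complement is a cascade of proteases that marks surfaces for clearance. C1R and C1S are the serine proteases of the C1 complex that start the classical pathway, C3 is the protein on which all activation routes converge, CFB supplies the protease of the alternative pathway, and CFI cuts activated C3 fragments. SERPING1 (C1 inhibitor) blocks C1R and C1S, CD46 and CD55 restrain C3 convertases at the cell surface, and CD59 blocks assembly of the membrane attack complex. Tumor cells commonly carry the membrane regulators, while the liver makes most of the soluble components.

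C1R (chr12:7080214-7092540, minus strand) and C1S (chr12:6988259-7071032, plus strand) lie back to back on GRCh38 with 9181 bases between them. CD55 (chr1:207321519-207386804) and CD46 (chr1:207752037-207795513) share the plus strand of chromosome 1, with a gap of 365232 bases. CD59 is at chr11:33703010-33736479 (minus), SERPING1 at chr11:57597387-57619171 (plus), C3 at chr19:6677704-6730562 (minus), CFB at chr6:31945650-31952086 (plus) and CFI at chr4:109731008-109802150 (minus). These are GENCODE positions of protein-coding genes. Of the 9 genes, 6 had upstream sequence in the RefSeq GRCh38.p14 table, with 11 start sites between them. The 250 bases before a start site are shown for C1R and CD59, whose values rose most on MYC and on MUC1 silencing, respectively, and for CD46, whose level varied least among the groups. Capitals mark TTCNNNGAA, the letters of the gamma-activated site (GAS) that STAT factors recognize.
C1R, chr12:7091894-7092143, minus strand: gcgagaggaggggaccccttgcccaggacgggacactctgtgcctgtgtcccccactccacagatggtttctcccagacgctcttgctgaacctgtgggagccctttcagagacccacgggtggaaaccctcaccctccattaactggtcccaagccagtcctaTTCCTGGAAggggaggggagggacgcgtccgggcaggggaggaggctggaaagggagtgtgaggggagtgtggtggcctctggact
CD59, chr11:33736480-33736729, minus strand: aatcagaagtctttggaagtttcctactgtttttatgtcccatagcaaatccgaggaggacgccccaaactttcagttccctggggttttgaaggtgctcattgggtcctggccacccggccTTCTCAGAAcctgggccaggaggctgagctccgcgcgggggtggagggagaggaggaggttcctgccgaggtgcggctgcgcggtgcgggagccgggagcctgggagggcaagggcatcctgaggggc
CD46, chr1:207751788-207752037, plus strand: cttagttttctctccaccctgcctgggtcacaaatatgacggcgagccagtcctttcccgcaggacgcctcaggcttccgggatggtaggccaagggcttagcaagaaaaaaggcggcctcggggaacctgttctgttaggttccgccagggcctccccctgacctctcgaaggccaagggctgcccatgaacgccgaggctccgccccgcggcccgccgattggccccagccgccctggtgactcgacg
The C1R window lies inside the annotated C1R and C1RL genes, in an exon of a transcript with a retained intron and in no annotated UTR. The CD59 window lies in no gene annotated on its own strand, and 1 base of the CD46 window is annotated as UTR. Genes on the opposite strand were not looked for. The GAS letters began 86 bases before the start in C1R and 128 bases before it in CD59, and the CD46 window held none. Of all 35116 windows of this length, 6.57% held them on either strand. The same GAS match lay 184 bases before a further CD59 start, and CFB held 1 as well, 92 bases before its start. The window of the other C1R start, those of the other 2 CD59 starts and those of CD46, CD55 and CFI held none. The E-box letters CACGTG, found in 6.34% of windows, were in none of the 11. TATAAA, found in 10.7% of windows, was in that of CFB alone, 30 bases before its start. No match overlapped another. These are matches of letters on both strands and do not show binding.

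Library totals ran from 38026597 to 99751717 counts. The library of tet-MYCshRNA DOX replicate 1 stood apart, since its counts differed over genes from the other libraries of its group by chi-square values per degree of freedom of 45.6 and 31.5, where the other 19 pairs within groups were at 4.13 to 18.5. Without it the log2 fold changes on MYC silencing were 5.08 for C1R, 3.60 for C1S, 4.62 for SERPING1, -0.35 for CD55 and 0.38 for CD59, and CD46 no longer passed. MUC1 fell in tet-MUC1shRNA mammospheres with DOX from 89.4 ± 9.79 to 21.6 ± 1.48 CPM (counts scaled to a common library size, SD, n = 3). MYC fell in tet-MYCshRNA mammospheres with DOX from 418 ± 32.6 to 275 ± 32.9 CPM. The shRNA labels therefore matched the direction of their target genes. The labelled tissue is epithelial breast, yet the epithelial markers EPCAM, CDH1, KRT8, KRT18 and KRT19 reached at most 1.55 CPM in any library, while VIM, a mesenchymal marker, was at 1067 CPM or above. The mesenchymal markers were not all steady. FN1 went from 460 ± 7.99 to 6590 ± 348 CPM in 3D cells and from 5209 ± 40.7 to 12523 ± 1150 CPM on MYC silencing, and CDH2 went from 451 ± 13.7 to 50.2 ± 1.09 CPM in 3D cells. On MUC1 silencing CDH2 went from 11.8 ± 0.885 to 75.1 ± 1.88 CPM and ZEB1 from 320 ± 15.3 to 121 ± 5.50 CPM. With VIM, the summed level of these 4 markers was 2180 to 2245 CPM in 2D cells and 7785 to 8370 CPM in 3D cells. In tet-MYCshRNA mammospheres it was 7916 to 7989 CPM with vehicle and 13694 to 16006 CPM with DOX. In tet-MUC1shRNA mammospheres it was 11260 to 12345 CPM with vehicle and 8316 to 8943 CPM with DOX. The summed level of the epithelial markers nevertheless moved with the groups, from 1.78 to 1.99 CPM in 2D cells to 0.654 to 0.904 CPM in 3D cells, and on MUC1 silencing from 0.0519 to 0.140 CPM up to 2.37 to 2.77 CPM. The 3 detected hepatocyte markers reached at most 0.353 CPM and the 5 leukocyte markers at most 1.49 CPM. Leukocyte sums were 1.45 to 2.19 CPM in 2D cells and 0.497 to 0.731 CPM in 3D cells. On MUC1 silencing they went from 0.545 to 0.933 CPM up to 0.967 to 1.51 CPM. On MYC silencing they went from 0.404 to 0.570 CPM up to 0.694 to 0.867 CPM. Of the 3 endothelial markers, CDH5 and VWF reached at most 0.176 CPM. Their summed level, nearly all PECAM1, was 0.0356 to 0.212 CPM in 2D cells, 5.87 to 7.08 CPM in 3D cells and between 2.79 and 10.3 CPM in the other mammospheres. The part of any of these marker sets in the differences below was not tested. In bulk RNA, fewer cells with a transcript and less transcript per cell cannot be told apart.

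Values below are CPM scaled by TMM factors over the 21 libraries. A gene passed a comparison at a Benjamini-Hochberg adjusted p below 0.1 in edgeR's quasi-likelihood test over all genes, and was called when its log2 fold change also exceeded 1.5 in size.

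In the untreated 3D cells compared with attached 2D cells, SERPING1 and CD55 rose most, CD46, C1R and C3 rose less, and C1S and CD59 fell. For C3 and CD59 the direction turned when the vehicle-treated tet-MUC1shRNA mammospheres were set against 2D cells instead, with log2 fold changes of -2.50 (edgeR adjusted p = 2.8e-09) and 0.55 (adjusted p = 1.8e-07). The 7 tested genes all passed, 5 higher and 2 lower, where 63.7% of the 19190 genes tested passed, 32% higher and 31.7% lower. SERPING1 and CD55 were called, where 6.9% of all genes were called higher. The 3 libraries of the groups did not overlap for 7 of the 7 when scaled within the comparison, against 64.3% of all genes. The median log2 fold change was 0.41 over the 7 genes and -0.01 over all genes.

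On MUC1 silencing, SERPING1, C1R and CD46 fell, whereas CD59, C3, C1S and CD55 rose. Again all 7 passed, 4 higher and 3 lower, against 62.2% of all genes (30.7% higher and 31.6% lower). SERPING1 was the single call, where 3.08% of genes were called lower. The groups did not overlap for 7 of the 7, against 62.8% of all genes. The median log2 fold change was 0.17, against 0.02 over all genes. Scaling by library size in place of TMM moved the median of all genes in this comparison by 0.17 on the log2 scale and left the direction of the 7 genes as it was.

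With GO-203, C1S, C1R, SERPING1, C3 and CD55 rose and CD59 fell. These 6 of 7 passed, 5 higher and 1 lower, against 24.1% of all genes (11.1% higher and 12.9% lower), and none was called. The groups did not overlap for 7 of the 7, against 33.7% of all genes. The median log2 fold change was 0.36, against 0.02 over all genes. The GO-203 libraries also had more empty cells in the deposited counts than the 3D cells, and the part of this was not tested. On MYC silencing, C1R, SERPING1 and C1S rose by log2 fold changes of 4.99, 4.52 and 3.57, CD59 and CD46 rose slightly and CD55 fell. These 6 of 7 passed, 5 higher and 1 lower, against 58.5% of all genes (30.3% higher and 28.1% lower), and the 3 highest were called, where 7.06% of genes were called higher. The groups did not overlap for 6 of the 7, against 59.7% of all genes. The median log2 fold change was 0.39, against 0.01 over all genes. C3 did not pass. Since the genes were chosen with these comparisons in view, nothing is read from the counts about complement as a group.

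**Figure D1:**
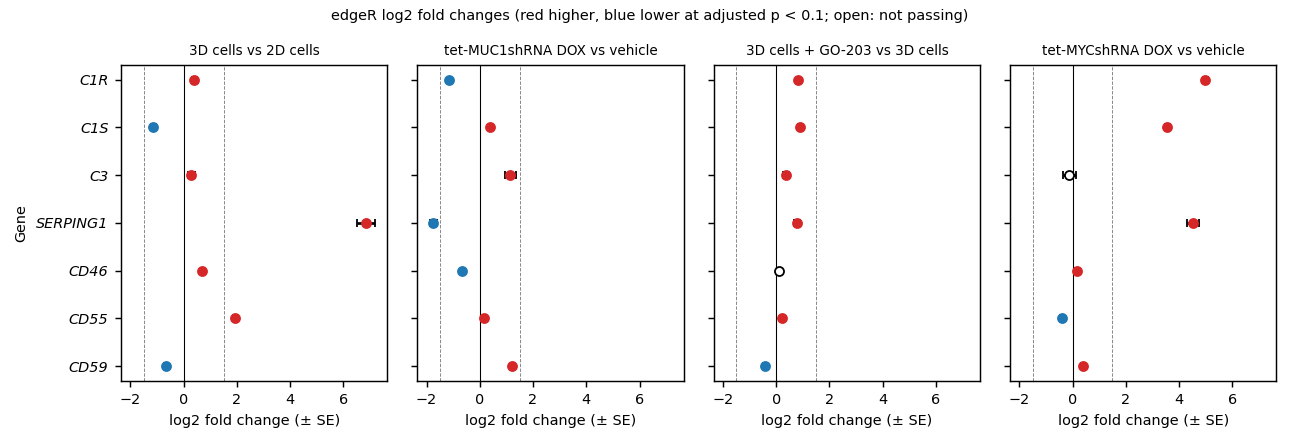
Log2 fold change (x axis, ± SE) of the 7 tested complement genes (y axis) in the 4 comparisons, by edgeR's quasi-likelihood fit on 6 libraries each, with dashed lines at 1.5 and -1.5. SERPING1 and CD55 stand beyond the right line in 3D against 2D cells, SERPING1 beyond the left line on MUC1 silencing, and C1R, C1S and SERPING1 beyond the right line on MYC silencing, while no point passes either line with GO-203.

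Per kilobase of annotated exon, the group means in 3D cells were 18.6 CPM for CD46, 12.6 for C1R, 12.3 for CD55, 5.24 for CD59, 4.11 for C1S, 0.820 for SERPING1, 0.713 for C3 and 0.0126 for CFB, and CFI had no read. The membrane regulators and the C1 proteases were thus the abundant transcripts on this scale, and the order between genes depends on the exon length assumed.

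C1R, the protease that cleaves C1S, was at 43.9, 63.8 and 65.0 CPM in 2D cells and at 75.3, 67.7 and 77.1 CPM in 3D cells. The groups did not overlap, but the first 2D library was well below the other 2D libraries, for C1S also. C1R rose by 0.41 on the log2 scale (SE 0.11, edgeR adjusted p = 0.0036), and by 0.26 without that library, 2D replicate 1. In tet-MUC1shRNA mammospheres C1R was at 106, 100.5 and 102 CPM with vehicle and at 45.5, 49.0 and 44.6 CPM with DOX. Every DOX culture was thus below every vehicle culture, with a log2 fold change of -1.16 (SE 0.05, edgeR adjusted p = 4.2e-14). In 3D cells + GO-203 the values were 129.5, 128 and 129.4 CPM, all above the 3D cells. That log2 fold change was 0.83 (SE 0.06, edgeR adjusted p = 1.6e-09). In tet-MYCshRNA mammospheres C1R was at 11.5, 10.5 and 10.8 CPM with vehicle and at 299, 388 and 368 CPM with DOX. DOX thus took it from the lowest of the 7 group means to the highest, 31.8-fold higher, with a log2 fold change of 4.99 (SE 0.10, edgeR adjusted p = 1.0e-09). Of the C1R exon bases, 11.6% are shared on the same strand with C1RL, a protease-like neighbour. How reads there were assigned is not stated.

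C1S, the protease that cleaves the next components C4 and C2, was at 61.0, 84.5 and 87.6 CPM in 2D cells and at 35.4, 30.8 and 36.0 CPM in 3D cells. It fell by 1.13 on the log2 scale in mammospheres (SE 0.10, edgeR adjusted p = 9.3e-08), the opposite direction to C1R. With MUC1 silencing C1S went from 54.0, 51.4 and 57.6 CPM to 68.3, 73.8 and 71.9 CPM. This rise, of 0.38 on the log2 scale (SE 0.06, edgeR adjusted p = 5.9e-06), was again opposite to C1R, and the groups did not overlap. With GO-203 it was at 65.1, 60.8 and 60.1 CPM, above every 3D library. The log2 fold change of 0.88 (SE 0.07, edgeR adjusted p = 1.8e-09) was close to that of C1R. With MYC silencing it went from 12.6, 11.2 and 10.0 CPM to 124, 139 and 142 CPM. C1S was thus 11.8-fold higher with DOX, a log2 fold change of 3.57 (SE 0.09, edgeR adjusted p = 3.7e-09).

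The ratio of C1R to C1S counts within a library, which does not depend on depth, followed these differences. It was 0.739 ± 0.018 (SD, n = 3) in 2D cells and 2.15 ± 0.038 in 3D cells. It was 1.90 ± 0.112 in tet-MUC1shRNA mammospheres with vehicle and 0.650 ± 0.026 with DOX. It was 0.974 ± 0.091 in tet-MYCshRNA mammospheres with vehicle and 2.60 ± 0.191 with DOX. In these 3 comparisons the groups did not overlap. With GO-203 the ratio was 2.08 ± 0.084, overlapping the 3D cells. The ratio compares counts, not molecules, since the genes differ in length, and it was formed after the values of both genes had been seen, so no test is given.

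**Figure D2:**
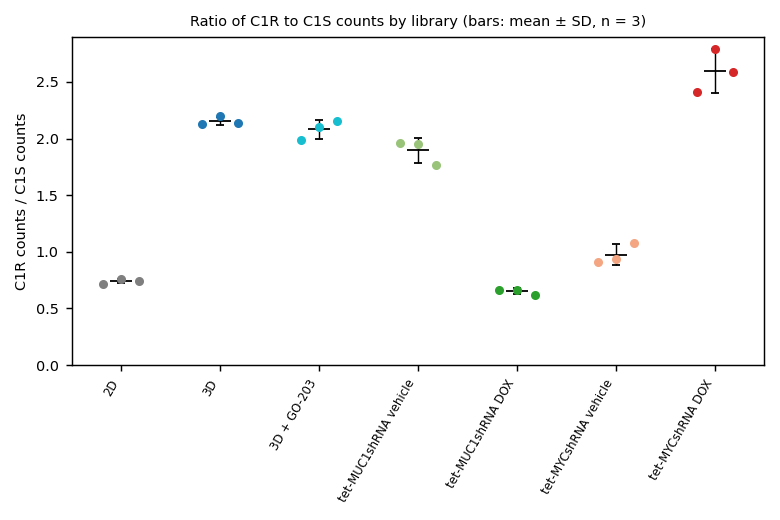
C1R counts divided by C1S counts (y axis) in each of the 21 libraries, by group (x axis), with points for libraries and bars for the mean ± SD of 3. The ratio sits between 0.620 and 1.08 in 2D cells, tet-MUC1shRNA DOX and tet-MYCshRNA vehicle mammospheres and between 1.77 and 2.79 in the other 4 groups.

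C3, the central component, was low throughout, at 1.0 to 11.1 CPM and 53 to 588 counts per library. In 2D cells it was at 8.23, 6.82 and 6.02 CPM and in 3D cells at 8.19, 8.14 and 8.45 CPM. The ranges overlapped on this scale though not when scaled over the 6 libraries alone, and the log2 fold change of 0.29 (SE 0.13, edgeR adjusted p = 0.067) passed the threshold narrowly. It fell short without 2D replicate 3 (log2 fold change 0.19, edgeR adjusted p = 0.270), 2D replicate 2 (0.28, adjusted p = 0.143) or 3D replicate 3 (0.28, adjusted p = 0.125). With GO-203 C3 was at 10.7, 11.1 and 9.75 CPM, above every 3D library, with a log2 fold change of 0.36 (SE 0.10, edgeR adjusted p = 0.0163). It did not pass with all 21 libraries in a single fit (0.33, adjusted p = 0.158).

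The shRNA-bearing mammospheres had a lower C3 level than 2D cells, with group means of 1.21 to 2.69 CPM against 7.02. In tet-MUC1shRNA mammospheres it was at 1.37, 1.24 and 1.03 CPM with vehicle and at 3.19, 2.71 and 2.16 CPM with DOX. The groups did not overlap, and the log2 fold change was 1.15 (SE 0.21, edgeR adjusted p = 7.1e-05). In tet-MYCshRNA mammospheres it was at 1.45, 1.51 and 1.05 CPM with vehicle and at 1.27, 1.47 and 1.0 CPM with DOX. These overlapped, with a log2 fold change of -0.12 (SE 0.24, edgeR adjusted p = 0.711). Of the C3 exon bases, 11.7% are shared on the same strand with a lncRNA that had at most 10 counts in a library.

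CFB was barely detected, with 0 to 11 counts per library, 73 in all, and 3 or fewer in 11 of the 21 libraries. The highest count, in a tet-MYCshRNA DOX library, was 0.191 CPM. Moreover, 42.3% of its exon bases are shared with another annotated gene. CFI had 4 counts in all, with 2 in a GO-203 library, 2 in a tet-MYCshRNA vehicle library and none in the other 19. A count of 0 allows up to 3 counts, which is 0.0301 to 0.0789 CPM depending on the library, for counting error only. Differences in either gene were not detectable at this depth.

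**Figure D3:**
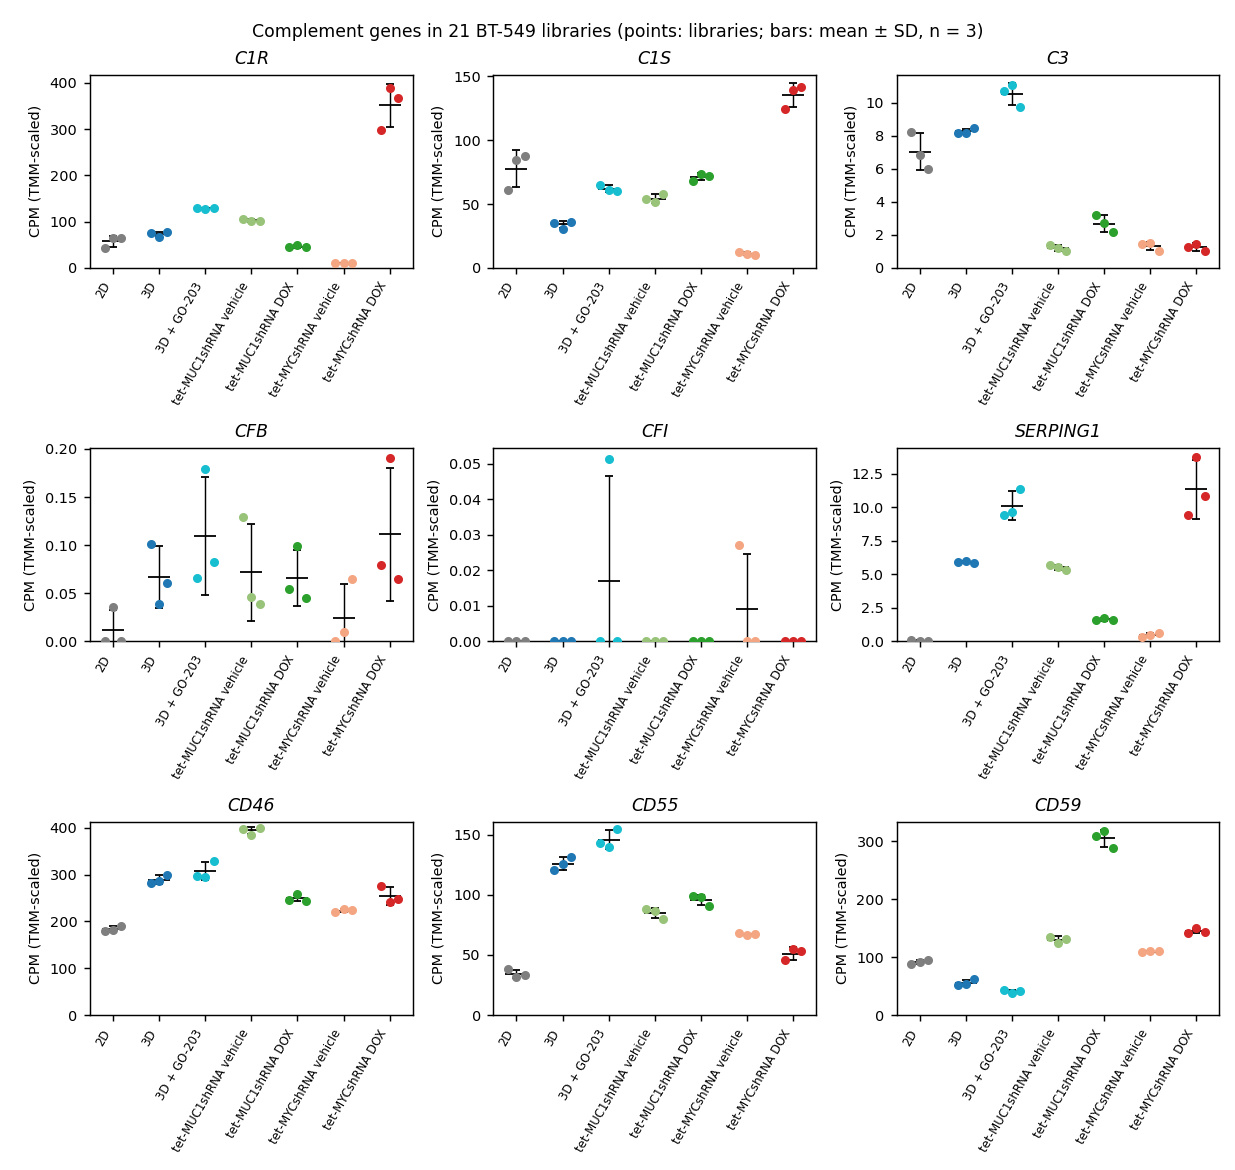
TMM-scaled CPM (y axes, each on its own scale from 0) of the 9 complement genes in the 7 groups (x axes), with points for libraries and bars for the mean ± SD of 3, cut at 0. C1R, C1S and SERPING1 peak in tet-MYCshRNA mammospheres with DOX and CD59 in tet-MUC1shRNA mammospheres with DOX, while CFB stays at or below 0.191 and CFI at or below 0.0513 CPM.

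SERPING1, the serpin that inactivates C1R and C1S, was nearly absent from attached cells. The 2D libraries held 4, 4 and 0 counts and the 3D libraries 292, 312 and 388. In CPM these were 0.0892, 0.0712 and 0 against 5.93, 6.00 and 5.85. Per scaled read, the 992 counts in 3D cells and 8 counts in 2D cells gave a ratio of 117, with an exact 95% interval of 59.0 to 271 for counting error. The edgeR log2 fold change was 6.86 (SE 0.35, adjusted p = 5.2e-11). It was 6.23 without 2D replicate 3, the library with no read, and 7.36 without 2D replicate 1.

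With MUC1 silencing SERPING1 fell from 5.70, 5.55 and 5.30 CPM to 1.58, 1.76 and 1.62 CPM. The groups were far apart relative to their spread, with a log2 fold change of -1.74 (SE 0.15, edgeR adjusted p = 2.6e-09). With GO-203 it went the other way, to 9.41, 9.64 and 11.3 CPM. That log2 fold change was 0.79 (SE 0.11, edgeR adjusted p = 2.6e-05). With MYC silencing it rose from 0.352, 0.520 and 0.597 CPM to 9.41, 13.7 and 10.9 CPM. This was 22.9-fold, a log2 fold change of 4.52 (SE 0.22, edgeR adjusted p = 1.0e-07). The level with DOX overlapped that with GO-203, so those neighbours in the order of group means did not differ beyond their spread.

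CD46, a cofactor for cleavage of C3b and C4b, varied least, with a ratio of 2.14 between its highest and lowest group means. It was at 180.1, 181 and 191 CPM in 2D cells and at 281, 285 and 299 CPM in 3D cells. It rose by 0.71 on the log2 scale in mammospheres (SE 0.05, edgeR adjusted p = 9.4e-09). With MUC1 silencing it fell from 397, 385 and 400.0 CPM to 247, 257 and 244 CPM. The log2 fold change of -0.67 (SE 0.04, edgeR adjusted p = 1.1e-11) returned it below the level of the 3D cells. With GO-203 it was at 297, 296 and 329.7 CPM, a log2 fold change of 0.11 that did not pass (SE 0.06, edgeR adjusted p = 0.201). These libraries overlapped the 3D cells on this scale, as they did not when the 6 libraries were scaled alone. With MYC silencing it was at 219, 226 and 224 CPM with vehicle and at 276, 240.5 and 247 CPM with DOX. The log2 fold change of 0.18 (SE 0.07, edgeR adjusted p = 0.073) rested much on DOX replicate 1, without which it was 0.09 (adjusted p = 0.136). It also did not pass without any 1 of the 3 vehicle libraries, at 0.14 to 0.17 on the log2 scale.

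CD55 (decay-accelerating factor), which takes C3 convertases apart, was at 38.2, 31.7 and 33.3 CPM in 2D cells and at 121, 125 and 131 CPM in 3D cells. It was thus well over the spread higher in mammospheres, with a log2 fold change of 1.93 (SE 0.08, edgeR adjusted p = 1.9e-12). With GO-203 it was at 143, 139 and 155 CPM. This was a small rise that passed, at 0.23 on the log2 scale (SE 0.06, edgeR adjusted p = 0.0081). With MUC1 silencing it went from 88.0, 86.8 and 79.6 CPM to 98.6, 97.9 and 91.0 CPM. This log2 fold change, 0.17 (SE 0.05, edgeR adjusted p = 0.0061), was of the size of the scaling shift in that comparison, and was 0.33 when scaled by library size. It did not pass with all 21 libraries in a single fit (0.14, adjusted p = 0.114). With MYC silencing it fell from 67.8, 66.7 and 67.0 CPM to 45.3, 54.6 and 53.5 CPM. That log2 fold change was -0.41 (SE 0.08, edgeR adjusted p = 9.7e-04), and no group overlapped its neighbour in the order of the 7 group means.

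CD59 (protectin), anchored like CD55 by a lipid, was the membrane regulator that fell in the untreated 3D cells, while the mean of each of the 4 shRNA mammosphere groups was above that of 2D cells. It was at 87.6, 91.3 and 95.0 CPM in 2D cells and at 51.2, 53.0 and 61.8 CPM in 3D cells. It fell with a log2 fold change of -0.67 (SE 0.07, edgeR adjusted p = 5.9e-07). With GO-203 it fell further, to 42.5, 38.6 and 42.0 CPM, a log2 fold change of -0.41 (SE 0.07, edgeR adjusted p = 1.3e-04). With MUC1 silencing it rose from 135, 124 and 132 CPM to 309, 318 and 289 CPM. All DOX cultures lay above every other library of the study, with a log2 fold change of 1.22 (SE 0.04, edgeR adjusted p = 3.0e-15). With MYC silencing it rose from 108, 110.4 and 110.4 CPM to 143, 149.8 and 144 CPM. That log2 fold change was 0.39 (SE 0.06, edgeR adjusted p = 2.7e-04).

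The mammosphere groups without DOX or GO-203 already differed in these genes, which sets the level from which each silencing effect started. Compared with 3D cells, tet-MUC1shRNA mammospheres with vehicle had lower C3 (log2 fold change -2.80, SE 0.15) and lower CD55 (-0.59, SE 0.06), each passing in edgeR. CD59 (1.21), C1S (0.65), C1R (0.46) and CD46 (0.43) were higher, and SERPING1 (-0.13, edgeR adjusted p = 0.383) did not pass. Here 6 of 7 passed, against 62.6% of all genes. Compared with those vehicle-treated mammospheres, tet-MYCshRNA mammospheres with vehicle had lower SERPING1 (log2 fold change -3.50, SE 0.19), C1R (-3.25, SE 0.06) and C1S (-2.28, SE 0.08). CD46 (-0.83), CD55 (-0.34) and CD59 (-0.25) were lower by less, and C3 (0.15, edgeR adjusted p = 0.594) did not pass. Here too 6 of 7 passed, against 66.8% of all genes. Between tet-MUC1shRNA mammospheres with vehicle and 3D cells, both at passage 6, line, shRNA, 0.1% DMSO and handling differ together and cannot be told apart. Between the vehicle groups of the shRNA lines, line, shRNA, passage (8 against 6) and handling differ together and cannot be told apart. SERPING1, C1R and C1S were the 3 genes called lower there, where 5.39% of all genes were called lower, and they were also the 3 genes called higher on MYC silencing. These contrasts share the vehicle libraries with the silencing comparisons, so the values are not independent of them.

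The silencing effects were compared directly as an interaction over the 12 shRNA libraries and are given as a description, since they are differences of comparisons already in view when the genes were chosen. The MUC1 effect minus the MYC effect was -6.17 on the log2 scale for C1R (SE 0.11), -6.28 for SERPING1 (SE 0.25) and -3.20 for C1S (SE 0.11). C1R and SERPING1 moved in opposite directions in the respective lines, whereas C1S rose in both by different amounts. The difference was -0.86 for CD46, 0.56 for CD55, 0.82 for CD59 and 1.25 for C3, and all 7 genes passed, against 52.9% of all genes.

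**Figure D4:**
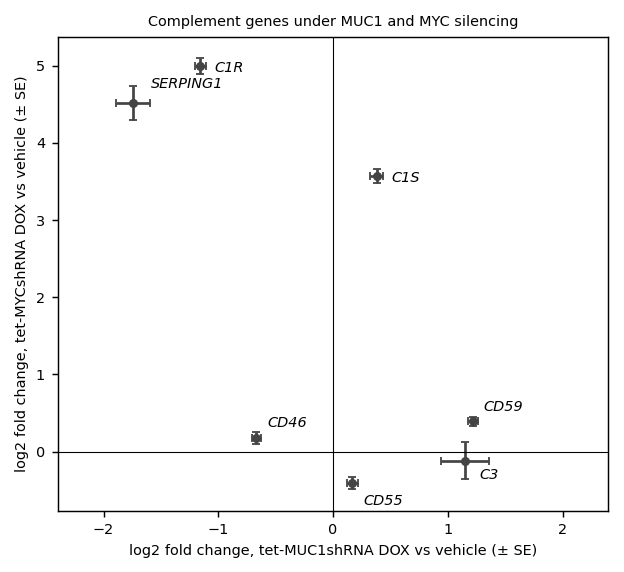
Log2 fold change on MUC1 silencing (x axis) against log2 fold change on MYC silencing (y axis) for the 7 tested complement genes, each with ± SE from edgeR. C1R and SERPING1 lie at upper left (-1.16 and 4.99, and -1.74 and 4.52), C1S at upper right, and the other 4 genes within 0.41 of zero on the y axis.

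MUC1 silencing and GO-203, which both address MUC1-C, were compared in the same way over 12 libraries, with no library shared and again as a description. The silencing effect minus the GO-203 effect was -2.53 for SERPING1 (SE 0.17), -1.99 for C1R (SE 0.08) and 1.64 for CD59 (SE 0.09). For these 3 genes the individual effects had opposite signs. The difference was -0.77 for CD46, -0.49 for C1S and 0.80 for C3. For CD55 it was -0.06 (SE 0.08, edgeR adjusted p = 0.584) and did not pass. In all 6 of 7 passed, against 44.9% of all genes. The shRNA line received vehicle or DOX and the GO-203 cultures came from untransduced cells, so line and agent cannot be told apart in this contrast.

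Of 50 further complement genes listed by role, 43 were in the table and 14 had enough reads to be tested in each of the first 3 comparisons, 20 on MYC silencing. In 3D against 2D cells 3 passed higher and 8 lower, where 32% and 31.7% of all genes did. On MYC silencing 10 passed higher and 3 lower, against 30.3% and 28.1% of all genes. On MUC1 silencing 5 passed higher and 4 lower (30.7% and 31.6% of all genes), and with GO-203 2 higher and 3 lower (11.1% and 12.9%). CLU (clusterin), a chaperone that also inhibits the membrane attack complex, was at 646 ± 112 CPM in 2D cells and at 10.3 ± 0.196 CPM in 3D cells (log2 fold change -5.92). CLU rose on MUC1 silencing (2.52) and on MYC silencing (1.64). C5AR1, the receptor for C5a, rose from 1.61 ± 0.243 to 45.0 ± 2.90 CPM in mammospheres (4.85).

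C6, a component of the membrane attack complex, was also called lower in mammospheres (log2 fold change -5.14), at under 5 CPM. On MYC silencing C1RL (2.31) and C5, the source of C5a (2.78), were called higher. CD93, a surface lectin-like protein (-2.29), and C1QBP, a mitochondrial protein that also binds C1q (-1.70), were called lower. Each of these passed in edgeR with groups that did not overlap. The partner C5AR1 was not called on MYC silencing, at a log2 fold change of 1.10 that passed. C1RL shares 13.5% of its exon bases with C1R, which rose in the same comparison, and the part of shared reads was not tested.

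**Figure D5:**
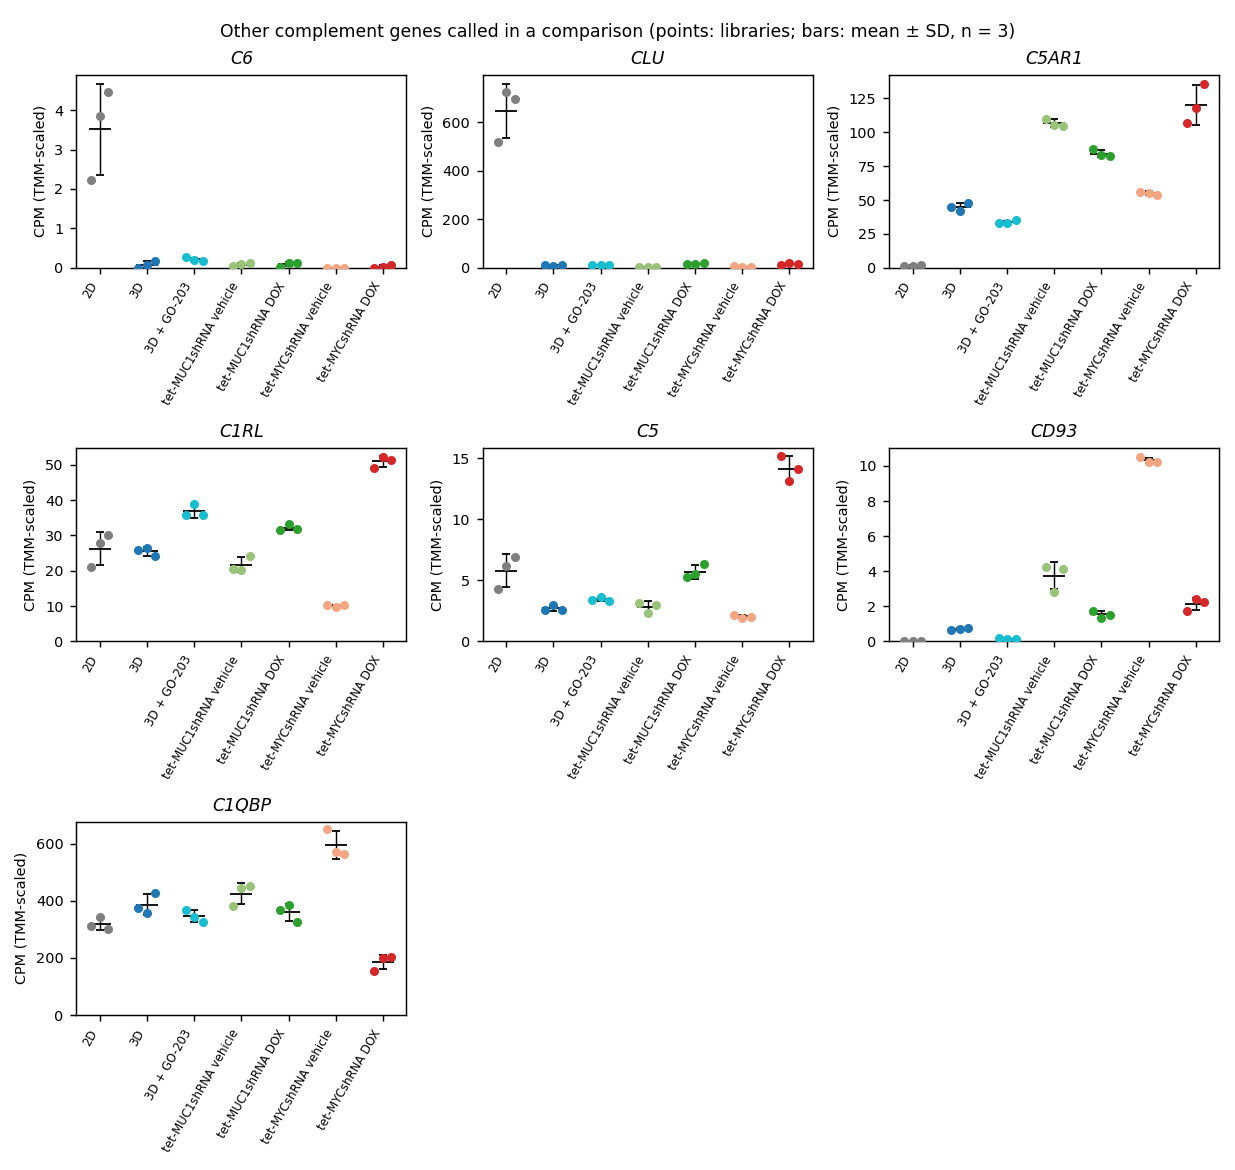
TMM-scaled CPM (y axes, from 0) of 7 further complement genes called in a comparison, in the 7 groups (x axes), with points for libraries and bars for the mean ± SD of 3. CLU and C6 are highest in 2D cells, C5, C1RL and C5AR1 in tet-MYCshRNA mammospheres with DOX, and CD93 and C1QBP in tet-MYCshRNA mammospheres with vehicle.

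For each tested gene, the genes whose centred log2 group means differed least from its own over the 7 groups were found among those with a mean of at least 5 CPM. For C1R they were CLSTN3 (root-mean-square difference 0.41, log2 units) and PLSCR4 (0.62), and for C1S PLPP3 (0.25) and TGFBI (0.28). For SERPING1 they were CD248 (0.47) and S100A4 (0.51), and for C3 PIK3C2B (0.41) and JAG2 (0.45). For CD46 they were PPP1R15A (0.08) and FBXO4 (0.09), for CD55 CSRNP1 (0.21) and HSD17B12 (0.22), and for CD59 ANKRD33BP1 (0.26) and ARHGAP24 (0.30). None was itself a complement gene of the lists used here. The measure is a description over 7 group means that share libraries with every comparison above.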

How the data were processed

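Per the labels and the study's methods, stranded mRNA libraries from triplicate cultures were sequenced, and the authors deposited raw counts per gene after STAR alignment to GRCh38. The submitters' processing notes list CASAVA 1.8.2, STAR 2.7.3a and DESeq2. The annotation release and strand setting are not given in the sources used here. Empty cells occur in whole blocks of libraries and were read as 0. Each library of 2D cells and of 3D cells had 6498 of them, and each GO-203 library had 7587. The number was 4952 in each tet-MUC1shRNA library and 5761 in each tet-MYCshRNA library. GO-203 libraries and their 3D controls, and the groups of each vehicle contrast, thus differ in this number. What the blocks stand for is not stated, and their part in these comparisons was not tested. No sample column was left out (0 not used).

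The members and lists were chosen with earlier results of these data known. All 9 members are named. Of 50 other complement genes, those called with a mean of at least 1 CPM over the 6 libraries and groups that did not overlap are named, except some that are not reported here. For likeness, the 2 nearest genes with mean CPM of at least 5 are given, with 0.5 CPM added before logs.

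In R 4.3.3, each pair was fitted on its own 6 libraries with edgeR 4.0.16 (filterByExpr, TMM, quasi-likelihood test, Benjamini-Hochberg over all genes), and interactions on 12. Adjusted p below 0.1, with an absolute log2 fold change above 1.5 for a call, follow a figure legend of the study. Its main text gives a fold change above 1.5, without the log2 scale, for the same comparisons. Standard errors were taken as the log2 fold change over the square root of F. Intervals and floors cover counting error only. The p-values set the difference between groups against the spread between triplicate cultures, and do not cover variation between lines or transductions. Gene positions are from GENCODE 44, and 42252 of 42339 identifiers had a symbol. The fits were tested on simulated data with 200 changed genes. Alternatives were DESeq2 1.42.0, RLE factors, library size alone, other low-count filters, all 21 libraries in a single fit, the replicate number as a block, a threshold of 0.05, 2D cells set against the vehicle group of the tet-MUC1shRNA line, and leaving out each library.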

Additional observations from a re-analysis of the deposited data

Results flagged for a closer look

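For 4 genes the effects of different perturbations differed by over 1.5 on the log2 scale in an interaction fit. The genes were chosen with the underlying comparisons in view, so these differences are a description and not independent support. The MUC1 silencing effect minus the MYC silencing effect was -6.17 for C1R, -6.28 for SERPING1 and -3.20 for C1S. The MUC1 silencing effect minus the GO-203 effect was -1.99 for C1R, -2.53 for SERPING1 and 1.64 for CD59. Each passed in edgeR's quasi-likelihood test over 12 libraries, and the lowest and highest values without any 1 library were -6.26 and -6.10, -6.42 and -6.10, -3.28 and -3.13, -2.03 and -1.93, -2.58 and -2.45, and 1.54 and 1.68, in that order. With 3 libraries a group, no outlier test was run on single values.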

How the results depend on the processing

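Of the main results recomputed with another setting, 106 stayed within 1.5 times, 3 counts rose and 1 fell. The fall was in other complement genes passing in 3D against 2D cells, 7 in place of 11 when every library had to hold at least 10 counts, where fewer genes were tested. In tet-MYCshRNA against tet-MUC1shRNA mammospheres with vehicle the same list gave 17 without a low-count filter and 16 with all 21 libraries in a single fit, in place of 10. For the difference of MUC1 silencing and GO-203 it gave 8 when scaled by library size, in place of 5. When the vehicle group of the tet-MUC1shRNA line stood for the mammospheres, C3 was lower than in 2D cells (log2 fold change -2.50) and CD59 higher (0.55), so the direction of both against 2D cells depends on which mammospheres are used. The CD55 difference between MUC1 silencing and GO-203, which did not pass, turned to 0.10 when scaled by library size. C3 on MYC silencing, which did not pass either, ranged from -0.27 to 0.035 without any 1 library and was 0.035 without tet-MYCshRNA DOX replicate 3. C3 in 3D against 2D cells no longer passed when scaled by library size (0.23) or with all 21 libraries (0.30), nor at adjusted p below 0.05. With all 21 libraries C3 with GO-203 (0.33) and CD55 on MUC1 silencing (0.14) did not pass. CD46 on MYC silencing did not pass with DESeq2 (0.17), library size (0.15) or no low-count filter (0.14), nor at adjusted p below 0.05. For these calls the cause was not tested. The replicate numbers did not pair the libraries, since the 18 correlations of same-numbered libraries' deviations ran from -0.18 to 0.08. With them as a block, the genes passing were 7 in 3D against 2D cells, 7 on MUC1 silencing, 6 with GO-203, 5 on MYC silencing, 6 in each vehicle contrast, 7 for the MUC1 and MYC difference and 6 for the MUC1 and GO-203 difference. Among the members, the block ended a single pass, that of CD46 on MYC silencing (0.17, adjusted p = 0.146). The other complement genes passing went from 9 to 8 on MUC1 silencing, 13 to 12 on MYC silencing and 5 to 7 with GO-203, and the block moved no count by over 1.5 times. Without any 1 library the genes passing numbered 6 to 7, 7 to 7, 6 to 6 and 5 to 6 in the 4 comparisons. Depth limits CFB, CFI and SERPING1 in 2D cells.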

Other observations

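The surroundings of C1S and C1R were examined after the values of both had been seen, and the choice was made with them in view. Within 100000 bases on either side, 16 genes were tested, the pair included. On MYC silencing 14 of them were higher and 2 lower, with a median log2 fold change of 1.04, against 30.3% of all genes higher and a median of 0.01. CLSTN3, a calsyntenin gene on the plus strand at chr12:7129698-7158945, had a log2 fold change of 4.25 (SE 0.11), between those of C1R and C1S. EMG1, a ribosome biogenesis factor (-1.05), and PHB2, a prohibitin (-0.36), were the genes that passed lower. On MUC1 silencing 7 of the 16 were higher, 5 lower and 4 did not pass, with a median of 0.22, where 30.7% of all genes were higher and 31.6% lower with a median of 0.02, and CLSTN3 was at 0.09 (SE 0.08, edgeR adjusted p = 0.335). ENO2, which encodes a glycolytic enolase, fell by 3.24 there on the log2 scale. Neighbouring genes are not independent, and C1R, C1S and C1RL were themselves among those counted.

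MUC1 rose on MYC silencing (log2 fold change 1.25), and MYC was slightly higher on MUC1 silencing (0.25). No test linked these values to the complement genes.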
